A study of Mus musculus with 8 samples.

Results

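Interferon response and antigen presentation genes were examined in AtT20 cells, a mouse line of pituitary corticotroph tumor cells, with and without the RXR agonist HX630. The group holds 41 genes, listed by their known roles: receptors and kinases of interferon signaling, transcription factors, negative regulators, sensors of viral RNA, antiviral effectors, and proteins that make and load peptides for class I molecules. No measured value of these arrays entered as a rule, but the list was chosen with earlier results of these data known. Its share of calls is therefore not that of a list made blind to the data. Of the 41 genes, 39 had a probe matched by RefSeq accession, and Mx1 and Mx2 had none matched. A probe was tested when Feature Extraction flagged it as well above background for 4 or more of the 8 arrays, which kept 35 of the 41 genes, against 15320 genes tested of 19751 with a probe on the whole array. Irf8, Ifit1, Ifit2 and Ifit3 were not well above background on any array.

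Type I interferons signal through the receptor chains Ifnar1 and Ifnar2 and the kinases Jak1 and Tyk2 to a complex that holds Stat2 and Irf9 and binds an interferon-stimulated response element (ISRE) in its target genes. Interferon gamma signals through Ifngr1 and Ifngr2 to genes with gamma-activated sites (GAS). Their targets include proteins that block viral replication and the subunits of the immunoproteasome, which cuts peptides for display on class I molecules with B2m, their light chain.

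RNA was taken from 4 control samples and 4 HX630 samples, each read on 1 array in the Cy3 channel. Control cells were incubated without HX630 and treated cells with 10 μM HX630, both for 48 hr in DMEM with 1% stripped FBS in multiwell plates. The cells are of a single line, and the labels do not say whether replicates came from separate cultures, so the p-values measure the spread between these samples, which may be technical. A level below is a log2 intensity from which the 75th percentile of its array was taken away. A difference is HX630 minus control on that log2 scale, by limma. A gene was called, and is said to rise or fall, at an adjusted p below 0.01 with a fold change above 1.5. The arrays of each group lay on a slide of their own, so slide and treatment cannot be told apart. The 75th percentile of the intensity was 1335 to 1862 on control arrays and 1802 to 1900 on HX630 arrays, and 69.7% to 73.5% of probes were well above background. Correlations between arrays were 0.994 to 0.998 within groups and 0.978 to 0.984 between them.

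With HX630, some genes of the interferon response rose and others fell, at several of its steps. Ifitm1, Oas2, Rsad2, Stat2, Ddx58 and the immunoproteasome genes Psmb9, Psmb8 and Psmb10 rose, while B2m, Bst2, Isg20, Ifnar2, Socs3 and Irf7 fell. A change in RNA per cell and a change in the share of cells that express a gene cannot be told apart in these samples. In all, 10 of the 35 tested members were called higher, against 8.39% of all genes tested, and 6 were called lower, against 11.2%. The 16 called make 45.7% of the members tested, against 19.5% of all genes. Ifih1 and Oasl2, among the 10, were well above background on HX630 arrays only, and so entered the test through the group in which they were high. Without them, 8 of 33 members rose and 6 fell, which is 42.4%, against 19.0% of the 15157 genes measured in both groups. Another 9 members passed the adjusted p but not the fold, 8 higher and 1 lower, and the other 10 did not pass the adjusted p. The median difference was 0.20 over the 35 members and 0.072 over the 33, against -0.034 over all genes tested.

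Control and HX630 arrays did not overlap in 29 of the 35 members, or 27 of the 33, against 61.5% of all genes. For the 14 called members measured in both groups the exact two-sided permutation test over the 70 regroupings of the arrays gave p = 0.0286, the smallest that 4 against 4 arrays allow, which any gene whose groups do not overlap reaches. The split of calls moved with the scaling. Rises made 62.5% of the members called with the 75th percentile, 73.3% with the median of each array and 81.3% with the spike-in control probes, which gave 13 rises and 3 falls. Spike-in scaling shifted the median of all genes from -0.034 to 0.19, and the members' median lay 0.24 above that of all genes under both. B2m, Bst2 and Isg20 were called lower under every scaling tried, while Ifnar2, Socs3 and Irf7 kept their direction under every one but went below the fold threshold with the spike-in probes, Socs3 and Irf7 also with the median and Irf7 also with quantile normalization. Among members not called, spike-in scaling changed the sign of Irf3, Irf9, Isg15, Tap2, Tapbp, Trim25 and Usp18.

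**Figure D1:**
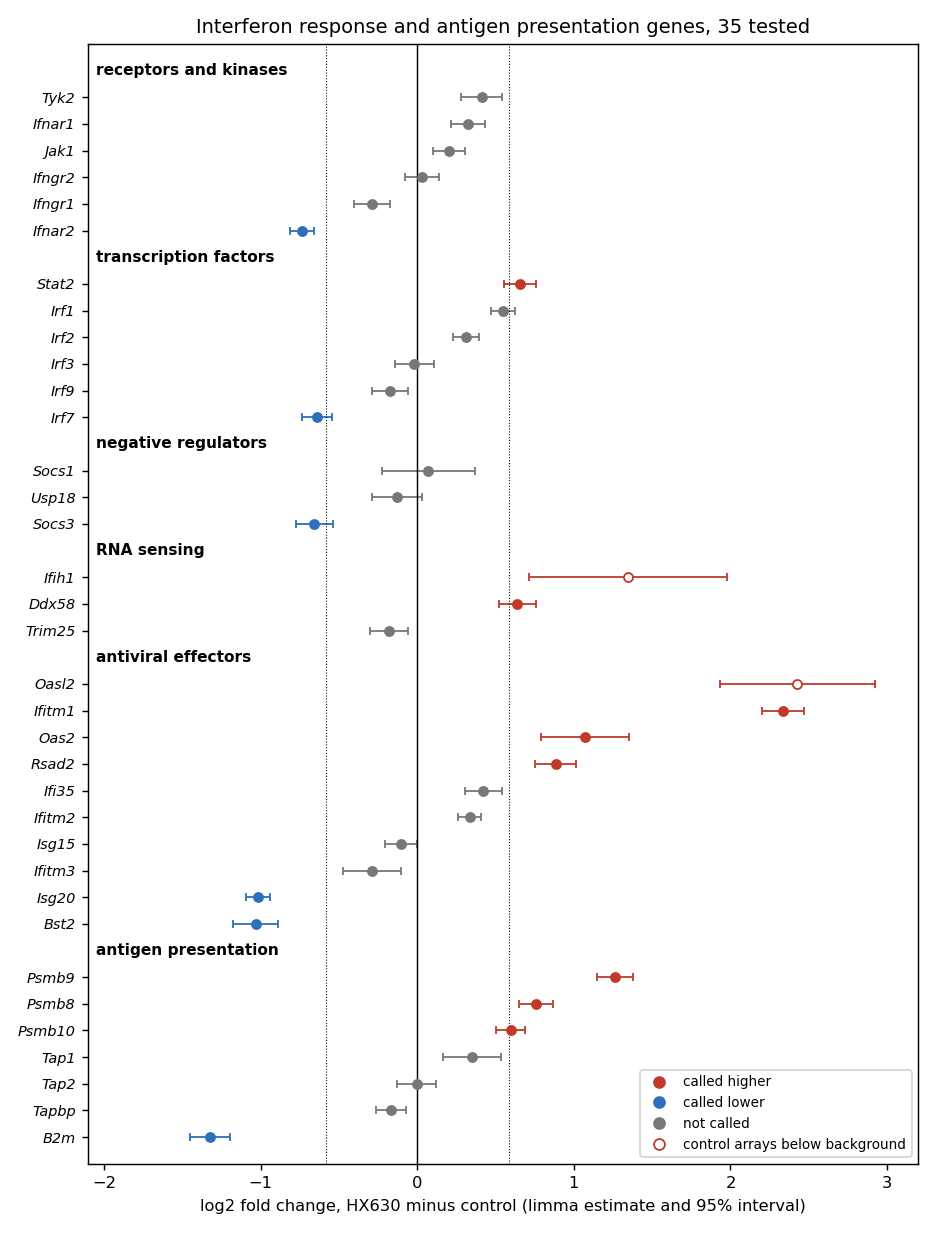
Difference of each of the 35 tested members, HX630 minus control, in log2 units on the horizontal axis, by role. Points are limma estimates and bars 95% intervals, red for genes called higher, blue for lower and grey for neither, open where no control array was well above background, and dotted lines mark a fold change of 1.5. The differences of the 33 members measured in both groups run from -1.32 for B2m to 2.34 for Ifitm1, with rises and falls in the same classes.

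The promoters of 5 genes are shown as examples that hold the core of the ISRE before the start site. These genes were called in opposite directions or not at all. The match nearest the start began at -222 in Stat2 and at -66 in Isg15. Irf2, Ifitm2, Socs1, Ifit1 and Ifit3 also hold the core there and are not shown. The sequences cover the 250 bases before the start of the gene in RefSeq on GRCm38.p6, 5′ to 3′ along the gene, with the ISRE core in capitals. This core was searched on both strands as GAAA, any pair of bases and GAAA again, which reads TTTC, any pair and TTTC on the other strand. The Stat2 promoter lies at chr10:128270248-128270497 (plus strand) and that of Rsad2 at chr12:26456453-26456702 (minus strand). Those of the falling genes B2m and Bst2 lie at chr2:122147437-122147686 (plus strand) and chr8:71537473-71537722 (minus strand). That of Isg15, which was not called, lies at chr4:156200819-156201068 (minus strand).
Stat2: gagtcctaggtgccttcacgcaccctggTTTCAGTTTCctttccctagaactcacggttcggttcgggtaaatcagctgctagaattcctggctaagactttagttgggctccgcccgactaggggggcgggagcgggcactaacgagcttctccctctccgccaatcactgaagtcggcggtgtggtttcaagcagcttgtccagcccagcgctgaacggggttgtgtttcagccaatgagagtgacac
Rsad2: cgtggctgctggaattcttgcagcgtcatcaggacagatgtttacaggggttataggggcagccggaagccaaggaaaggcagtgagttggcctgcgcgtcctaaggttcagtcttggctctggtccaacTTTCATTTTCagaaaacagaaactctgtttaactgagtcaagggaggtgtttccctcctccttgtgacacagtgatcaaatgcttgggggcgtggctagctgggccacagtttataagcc
B2m: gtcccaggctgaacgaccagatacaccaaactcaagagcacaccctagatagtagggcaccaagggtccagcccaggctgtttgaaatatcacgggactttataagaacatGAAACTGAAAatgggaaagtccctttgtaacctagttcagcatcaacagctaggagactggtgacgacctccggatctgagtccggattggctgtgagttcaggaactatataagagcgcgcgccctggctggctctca
Bst2: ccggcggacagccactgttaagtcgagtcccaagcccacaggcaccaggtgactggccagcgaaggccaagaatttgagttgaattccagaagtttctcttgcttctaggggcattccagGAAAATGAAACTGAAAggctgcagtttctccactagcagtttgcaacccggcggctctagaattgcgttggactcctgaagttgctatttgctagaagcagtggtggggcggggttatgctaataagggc
Isg15: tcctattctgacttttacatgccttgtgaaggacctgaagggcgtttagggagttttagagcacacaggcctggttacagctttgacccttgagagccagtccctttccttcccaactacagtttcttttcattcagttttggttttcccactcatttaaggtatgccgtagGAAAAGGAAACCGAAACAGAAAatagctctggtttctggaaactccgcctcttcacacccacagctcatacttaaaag
Capitals stand once in Stat2, Rsad2 and B2m, while 2 overlapping matches in Bst2 and 3 in Isg15 run together.

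Of the members, 36 had a promoter window of 300 bases, from 250 before to 50 after the start, and Usp18, Mx1, Mx2, Oas2 and Tap2 had none. The ISRE core was found in 13 of the 36 genes, against 3.99% of the 27025 genes with a window, and in 3.44% of all 32851 windows. By call, these were 4 of 9 genes called higher (Stat2, Rsad2, Ifih1 and Ddx58), 2 of 6 called lower (B2m and Bst2), 5 of 17 tested and not called (Irf2, Isg15, Ifitm2, Ifitm3 and Socs1), and 2 of 4 not tested (Ifit1 and Ifit3). The matches in Ifih1 and Ddx58 began after the start site, 32 and 2 bases from it. The core of the GAS, TTCNNNGAA, which reads the same on both strands, was found in 12 of the 36 genes, against 9.55% of all genes and 8.3% of windows. It was in 1 of 9 genes called higher (Psmb8), 4 of 6 called lower (Ifnar2, Socs3, Isg20 and Bst2), 5 of 17 not called and 2 of 4 not tested. In Bst2 and in Ifitm3 matches to both cores overlapped. These matches describe letters in a window and not bound sites.

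**Figure D2:**
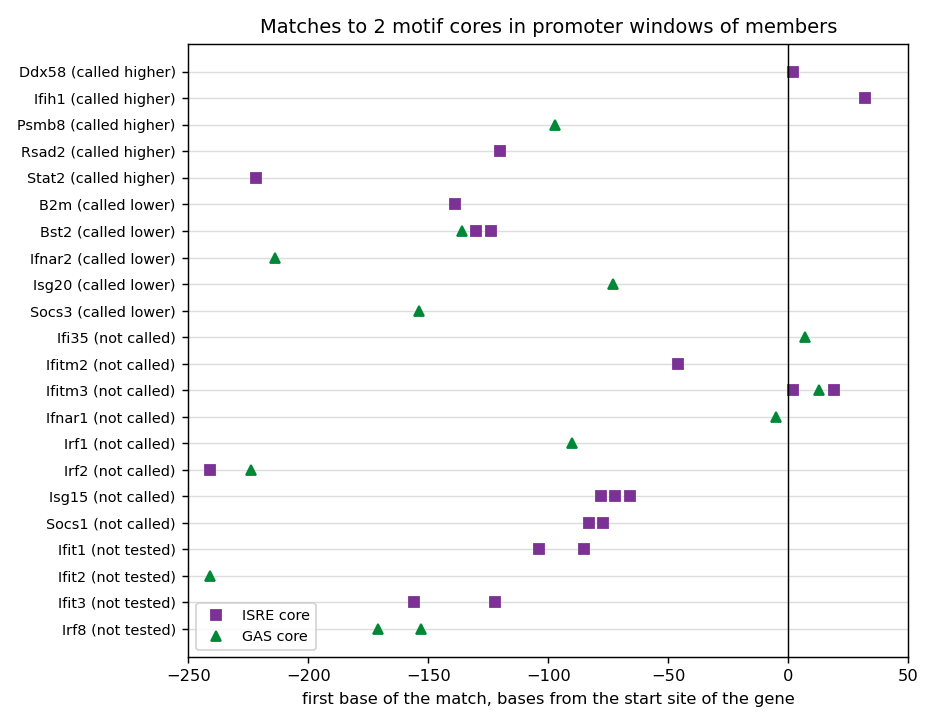
First base of each match to the ISRE core (squares) and the GAS core (triangles), in bases from the start site on the horizontal axis, for each member with a match, with its call beside its name. Matches to the ISRE core stand in genes called higher, called lower and not called.

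Of the 6 receptors and kinases, 16.7% were called, against 19.5% of all genes. The 1 called was Ifnar2, the chain of the type I receptor that binds interferon most tightly. Its level was 2.28, 2.20, 2.24 and 2.29 on the control arrays and 1.51, 1.53, 1.495 and 1.52 on the HX630 arrays. The groups were far apart, and Ifnar2 fell by 0.73 on the log2 scale (SE 0.0337, limma adjusted p = 1.16e-06), which left 60.1% of the control level. With spike-in scaling or normexp background correction it stayed lower but missed the fold threshold. The other chain, Ifnar1, differed by 0.33 (adjusted p = 5.13e-04) at its brightest probe, under the fold threshold, and by 0.029 and 0.014 at its other probes. Of the receptor for interferon gamma, Ifngr1 differed by -0.29 (adjusted p = 0.00168) and Ifngr2 by 0.030 (adjusted p = 0.603). The kinases Jak1 and Tyk2 differed by 0.20 (adjusted p = 0.00457) and 0.41 (adjusted p = 4.12e-04). Both kinases were higher on all 4 HX630 arrays than on any control array, but by less than 1.5 times.

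Among transcription factors, Stat2 rose and Irf7 fell. Stat2, the partner of Irf9, was at 0.76, 0.62, 0.59 and 0.68 on the control arrays and 1.34, 1.34, 1.29 and 1.31 on the HX630 arrays. Every HX630 array lay above every control array, with a difference of 0.66 on the log2 scale (SE 0.0438, limma adjusted p = 7.98e-06), 1.58-fold higher. Irf7, the factor that amplifies type I interferon production, was at -2.08, -1.99, -2.08 and -2.12 on the control arrays and -2.76, -2.65, -2.68 and -2.74 on the HX630 arrays, and its level with HX630 was 1.56-fold lower than control. Irf1, an activator of class I and immunoproteasome genes, differed by 0.55 (adjusted p = 4.80e-06), just under the fold threshold, and passed it with quantile, median and spike-in scaling. Irf2, an Irf1 antagonist, differed by 0.31 (adjusted p = 1.62e-04) and Irf9 by -0.17 (adjusted p = 0.0177). Irf3, which starts interferon gene expression on viral infection, differed by -0.019 (adjusted p = 0.779), and its sign changed with the scaling.

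Of the negative regulators, Socs3, a feedback inhibitor of cytokine receptors that act through Jak kinases, was called. It was at 1.23, 1.33, 1.30 and 1.23 on the control arrays and 0.73, 0.59, 0.55 and 0.59 on the HX630 arrays. It was 1.58-fold lower with HX630, with no overlap between groups. Socs1, the main inhibitor of interferon signaling in this family, differed by 0.072 (adjusted p = 0.653), and its HX630 replicate 1, at -2.12, stood apart from the other HX630 arrays. Without that array the difference was -0.053. Usp18, a protease that removes Isg15 from proteins and restrains the type I receptor, differed by -0.13 (adjusted p = 0.142).

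Both helicases that sense viral RNA in the cytoplasm, Ddx58 (RIG-I) and Ifih1 (MDA5), were called higher. Ddx58 was at -2.50, -2.58, -2.63 and -2.54 on the control arrays and -1.90, -1.85, -1.91 and -2.03 on the HX630 arrays, 1.56-fold higher with HX630. Its second probe was well above background on only 2 HX630 arrays and was not tested. Ifih1 was not well above background on any control array and was at -5.76, -6.12, -6.16 and -6.39 on the HX630 arrays, at least 1.79-fold higher (limma adjusted p = 0.00346). This bound sets the HX630 mean against the lowest signal well above background on each control array, or the probe's own signal where higher. A second Ifih1 probe was not well above background on any array. Ifih1 missed the adjusted p when control replicate 2 or HX630 replicate 1, 2 or 3 was left out, and with normexp background correction its difference was -0.11 (adjusted p = 0.614). Trim25, a ubiquitin ligase of Ddx58, differed by -0.18 (adjusted p = 0.017).

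Of the 10 antiviral effectors tested, 4 rose, against 8.39% of all genes, and 2 fell, against 11.2%. Oasl2 entered the test through the HX630 arrays only, and of the 9 measured in both groups 3 rose and 2 fell. The largest rise among members measured in both groups was that of Ifitm1. Ifitm1, a membrane protein that hinders the entry of viruses, was at -4.62, -4.74, -4.68 and -4.61 on the control arrays and -2.20, -2.43, -2.35 and -2.32 on the HX630 arrays. No control array came near an HX630 array, and the difference was 2.34 on the log2 scale (SE 0.0577, limma adjusted p = 1.22e-07), 5.05-fold higher. Over 24 alternative settings the Ifitm1 difference ran from 1.55 to 2.56. Oasl2, a member of the oligoadenylate synthase family, was not well above background on control arrays and was at -5.35, -5.20, -5.45 and -5.11 on the HX630 arrays, at least 3.16-fold higher (limma adjusted p = 3.68e-05). Oas2, which makes oligoadenylates on sensing viral RNA, was at -4.18, -4.72, -4.62 and -4.60 on the control arrays and -3.53, -3.45, -3.30 and -3.56 on the HX630 arrays. Control replicate 1 was the highest control array and still below all HX630 arrays, and the difference was 1.07 on the log2 scale (SE 0.121, limma adjusted p = 1.51e-04), 2.1-fold higher. Rsad2 (viperin), an enzyme that makes a chain-terminating nucleotide, was at -3.22, -3.02, -3.09 and -3.22 on the control arrays and -2.23, -2.21, -2.31 and -2.26 on the HX630 arrays. Its difference was 0.89 on the log2 scale (SE 0.0563, limma adjusted p = 6.15e-06), 1.85-fold higher. With normexp background correction Oas2 and Oasl2 were not called, with differences of 0.33 and 0.11.

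The effectors that fell were Isg20, an exonuclease that degrades RNA, and Bst2 (tetherin), which holds budding viruses at the cell surface. Isg20 was at 5.42, 5.36, 5.41 and 5.37 on the control arrays and 4.36, 4.42, 4.36 and 4.36 on the HX630 arrays. It fell by 1.01 on the log2 scale (SE 0.0329, limma adjusted p = 2.88e-07) to 49.5% of control, and its second probe fell by 1.02. Bst2 was at 0.18, -0.080, 0.026 and 0.11 on the control arrays and -0.92, -0.98, -1.04 and -0.94 on the HX630 arrays, and fell by 1.03 (SE 0.0613, limma adjusted p = 4.34e-06) to 49%. Both were apart from control on all 4 arrays. Isg15, a ubiquitin-like protein and among the classical targets of interferon, differed by -0.10 (adjusted p = 0.0739) at 1 probe and -0.074 at the other, and its sign changed with spike-in scaling. Ifi35, which binds other interferon-induced proteins, differed by 0.42 (adjusted p = 2.08e-04). The relatives of Ifitm1 differed by 0.34 (adjusted p = 5.90e-05) for Ifitm2 and -0.29 (adjusted p = 0.0155) for Ifitm3. Whether their probes tell these similar genes apart was not tested.

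**Figure D3:**
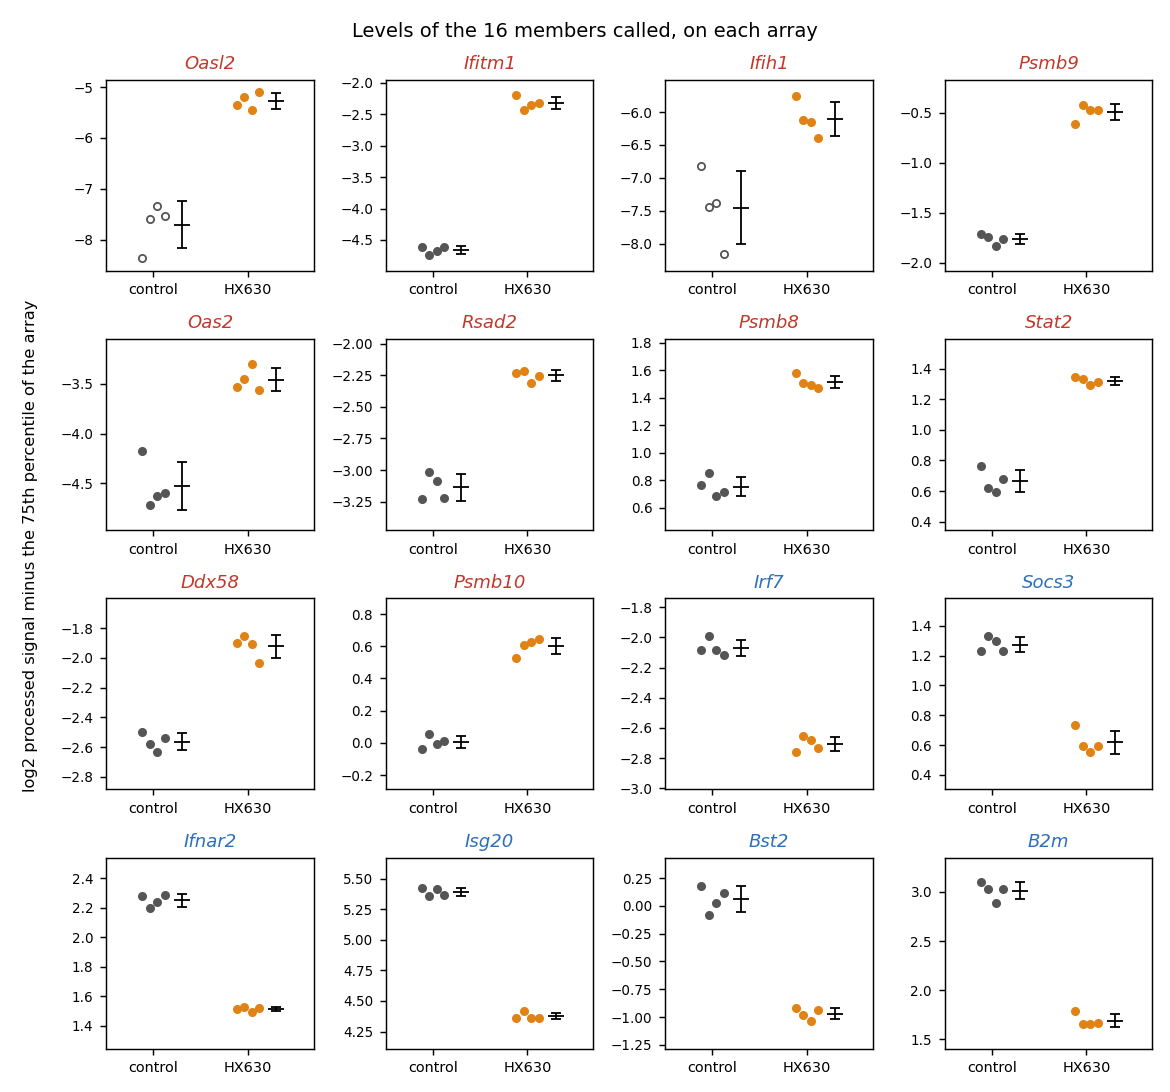
Level of the 16 called members on each of the 8 arrays, as log2 intensity relative to the 75th percentile of the array, with the mean and SD (n = 4) beside the points. Gene names are red for called higher and blue for called lower, open points mark groups with no array well above background, and axes differ between panels. No panel has control and HX630 arrays that overlap.

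In antigen presentation, the 3 immunoproteasome subunits rose while B2m fell. Psmb9 was at -1.71, -1.74, -1.83 and -1.76 on the control arrays and -0.61, -0.42, -0.47 and -0.48 on the HX630 arrays. Its difference was 1.26 on the log2 scale (SE 0.0499, limma adjusted p = 6.14e-07), 2.4-fold higher. Psmb8 was at 0.77, 0.85, 0.69 and 0.71 on the control arrays and 1.58, 1.51, 1.496 and 1.47 on the HX630 arrays, with a difference of 0.76 on the log2 scale (SE 0.0463, limma adjusted p = 4.93e-06), 1.69-fold higher. Psmb10 was at -0.039, 0.053, -0.0055 and 0.014 on the control arrays and 0.53, 0.61, 0.62 and 0.65 on the HX630 arrays, 1.51-fold higher. Groups did not overlap in any of the 3, but Psmb10 lay close to the fold threshold and went under it without control replicate 1 or HX630 replicate 4. B2m, the light chain of class I molecules, was at 3.097, 3.03, 2.89 and 3.03 on the control arrays and 1.78, 1.66, 1.65 and 1.67 on the HX630 arrays. It fell by 1.32 on the log2 scale (SE 0.0545, limma adjusted p = 7.39e-07), to 40% of the control level. The peptide transporter genes differed by 0.35 (adjusted p = 0.00662) for Tap1 and -0.0032 (adjusted p = 0.964) for Tap2, and tapasin (Tapbp), which loads peptides on class I molecules, by -0.17 (adjusted p = 0.01001). The sign for Tap2 changed with the scaling.

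The constitutive subunits that the immunoproteasome replaces were measured as a comparison. Of the 7 constitutive beta subunit genes tested, limma called 0 and the methods' t-test with the same fold called 0. The share that limma called over all genes was 19.5%, and whether these few genes differ from it was not tested. The 2 at an unadjusted p below 0.05, Psmb3 and Psmb7, also passed the adjusted p below 0.01 but not the fold, and Psmb3, named after its value was seen, differed by 0.26 (limma adjusted p = 0.00103). Psmb6, Psmb5 and Psmb7, the counterparts of Psmb9, Psmb8 and Psmb10, differed by 0.073 (adjusted p = 0.156), 0.041 (adjusted p = 0.52) and 0.15 (adjusted p = 0.00681). On each array the log2 level of the counterpart was then subtracted from that of the immunoproteasome subunit. This difference was 1.19 higher with HX630 for Psmb9 minus Psmb6, 0.72 higher for Psmb8 minus Psmb5 and 0.45 higher for Psmb10 minus Psmb7. The change for Psmb10 minus Psmb7 was 1.37-fold, under the fold threshold, against 2.28-fold for Psmb9 minus Psmb6 and 1.65-fold for Psmb8 minus Psmb5. Each of the 3 pairs gave p = 0.0286 in the exact two-sided permutation test, and 0.0286 after Benjamini-Hochberg adjustment over the 3. That is the smallest p that 4 against 4 arrays allow. The counterparts follow from the known replacement of these subunits, and the test of the pairs was added after the values were seen. By then the immunoproteasome subunits were known not to overlap between groups, and their counterparts to differ by only 0.041 to 0.15. The test of the pairs therefore restates those values and is no separate evidence.

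Among other genes of antigen presentation, 17 were tested, of which 1 rose and 2 fell, or 17.6% called against 19.5% of all genes. Psme1, a subunit of the interferon-induced proteasome activator, rose by 0.70 (adjusted p = 5.10e-06). H2-T23, a non-classical class I heavy chain, fell by 0.71, and Cd74, the class II invariant chain, fell by 0.59. The classical heavy chains, named here after their values were seen, differed by -0.47 (adjusted p = 9.07e-05) for H2-K1 and -0.56 (adjusted p = 1.18e-04) for H2-D1, both under the fold threshold. Class I heavy chains are similar in sequence, and cross-hybridization was not tested.

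**Figure D4:**
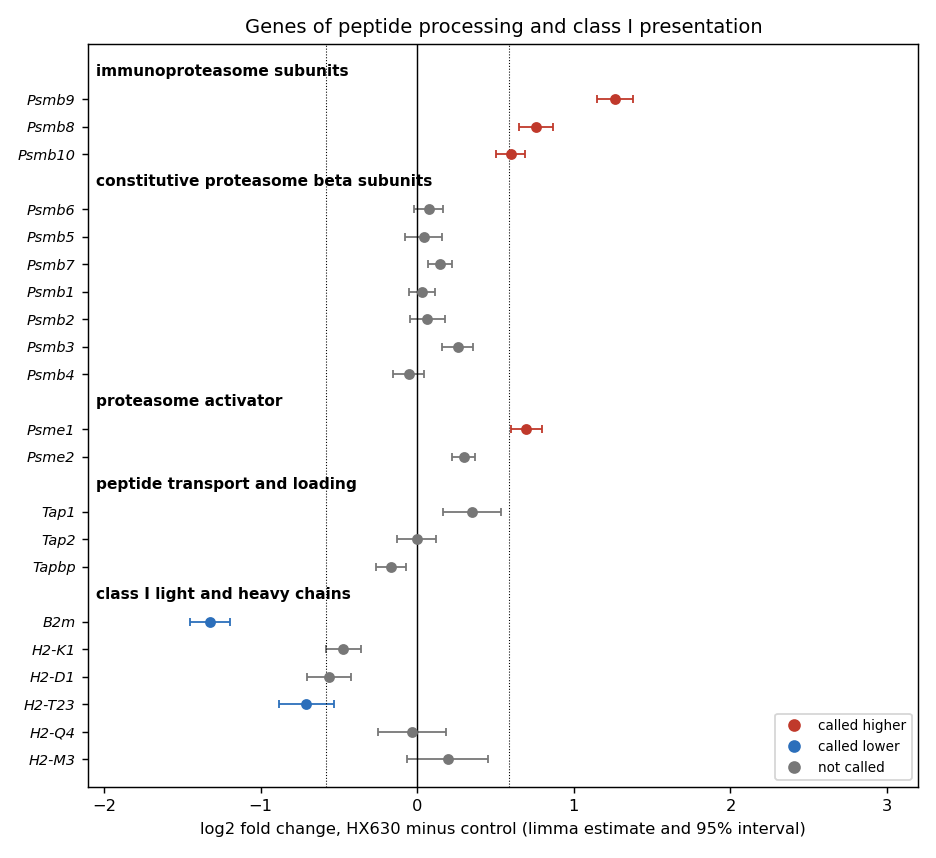
Difference, HX630 minus control, in log2 units on the horizontal axis for genes that make, transport and present class I peptides. Points are limma estimates and bars 95% intervals, red for called higher, blue for called lower and grey for neither, with dotted lines at a fold change of 1.5. The immunoproteasome subunits lie at 0.60 to 1.26, their constitutive counterparts at 0.041 to 0.15, and B2m at -1.32.

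Some members are neighbours in RefSeq's gene order. Psmb9, Tap1, Psmb8 and Tap2 follow each other on chromosome 17, with differences of 1.26, 0.35, 0.76 and -0.0032. Ifitm2, Ifitm1 and Ifitm3 follow each other on chromosome 7, with 0.34, 2.34 and -0.29. Ifnar1 and Ifngr2 are next to each other on chromosome 16, with 0.33 and 0.030. The difference between neighbours was not tested.

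The other genes of the pathway were taken from a list of 106 genes, of which 86 were tested, 14 rose and 7 fell, against the 8.39% and 11.2% of all genes. Interferon-stimulated genes outside the 41 made up most of these, with 11 rises and 4 falls among 33 tested, or 45.5% called against 19.5% of all genes. Parp14, an ADP-ribosyltransferase, rose by 1.93. Lgals9, a galectin, was not well above background on control arrays and was at least 1.85-fold higher. It entered the test through the HX630 arrays only. Without it, 13 of 85 genes of the pathway rose and 7 fell. Among the interferon-stimulated genes, 10 of 32 then rose and 4 fell. Lgals3bp, a secreted galectin-binding protein, fell by 1.46, Gbp2, an interferon-induced GTPase, by 0.82, and Ifi30, a lysosomal thiol reductase, by 0.75.

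Of 13 sensors and adaptors tested, 15.4% were called, against 19.5% of all genes. Dhx58, a relative of Ddx58, rose by 1.06 and Sting1, the adaptor of cytoplasmic DNA sensing, fell by 0.65. Of 13 other signaling genes tested, 7.69% were called, against the same 19.5%. The 1 called was Socs2, an inhibitor of growth hormone signaling, which rose by 1.02. Of 8 interferon genes with a probe, 3 were tested, and limma and the methods' t-test called 0, with 2 at an unadjusted p below 0.05. With 3 genes, 0 calls cannot be set apart from the 19.5% of all genes. Ifnb1, Ifna4, Ifnk and Ifne were not well above background on any array, and Ifng was on 1 HX630 array.

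The corticotroph label was checked against 8 markers. Of these, 6 were well above background on all 8 arrays, Pomc among them, and Avpr1b was on none. The summed level of the list, in multiples of the 75th percentile, was 301 to 376 on control arrays and 218 to 228 on HX630 arrays. Its members went both ways: Pcsk1 fell by 2.06 on the log2 scale, Crhr1 rose by 1.11 and Neurod1 rose by 0.72, while Pomc, Tbx19 and Pitx1 differed by -0.45, -0.37 and -0.32, under the fold threshold. Of 11 markers of macrophages and other leukocytes, cells that also express class I and interferon genes, 9 were well above background on all arrays. Their summed level was 8.58 to 10.5 on control and 6.51 to 8.46 on HX630 arrays, Csf1r, Tyrobp and Cd3e fell, and Lyz2 was not well above background on any array. Most of this sum came from 1 Itgam probe, at a mean level of 2.56 on control and 2.55 on HX630 arrays. The other Itgam probes lay at -4.67 and -4.08 on control arrays. The mean level of Cd3e was 1.30 on control and -0.15 on HX630 arrays. The sum for 6 endothelial markers was 2.74 to 3.40 on control and 2.17 to 2.67 on HX630 arrays, with Cdh5, Emcn and Tek above background on none. Most of it came from 1 Kdr probe, at a mean level of 1.54 on control and 1.18 on HX630 arrays. The other Kdr probe was at -6.57 and -6.62. Pecam1 fell by 0.59. Sums overlapped between groups for 8 fibroblast markers, at 0.166 to 0.212 and 0.157 to 0.213, and for 7 markers of other pituitary cells, at 0.330 to 0.498 and 0.317 to 0.372, with Fap, Lum, Pdgfra, Prl and Tshb above background on none. Within these lists single markers were called both ways: Dcn rose by 1.04, while Thy1 fell by 0.64 and Gh by 0.79. The part of these markers in the differences above was not tested.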

How the data were processed

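Total RNA of 4 control and 4 HX630 samples was labeled with Cy3, 1 array per sample. The authors deposited the Feature Extraction 10.7.3.1 output of each array, with a processed intensity per spot after background subtraction and spatial detrending, and a log2 table made in GeneSpring 12.0, whose column medians were -3.91 to -3.67. Set against the arrays, that table held log2 processed signal minus the 75th percentile. Flags of Feature Extraction marked outliers and spots well above background, and the files also give median spot and local background intensity.

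With R 4.3.3 and limma 3.58.1, log2 processed signals were reduced by the 75th percentile of each array, without control and outlier spots, and averaged per probe. This removed 5 spots of member probes and left every one a value on all 8 arrays. Of 39429 probes, 26055 (66.1%) were named through RefSeq accessions on GRCm38.p6. Probes well above background on at least 4 arrays were fitted with lmFit and eBayes over all 8 arrays, with Benjamini-Hochberg adjustment over 28553 probes. A gene was represented by its brightest tested probe. On simulated data for HX630 against control (28543 probes, 200 changed by 1 on the log2 scale) 77% were recovered, with 3 false calls. The number of arrays limits the precision.

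The members and lists were chosen with earlier results of these data known. All members are accounted for by role, called members with their values on all arrays, and from other lists up to 3 called genes per direction, plus Psmb5, Psmb6 and Psmb7. Of the genes this rule names, 2 are not reported here. Promoters came from RefSeq on GRCm38.p6. The array design uses another build, so no probe coordinates are given. Alternatives were other scalings, background correction, filters, tests, thresholds, probe averaging, a replicate block and fits that left out 1 array.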

Additional observations from a re-analysis of the deposited data

Results flagged for a closer look

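In 4 of 70 groups of 4 arrays tested over the 35 members, 1 array stood apart by Dixon's ratio, its gap to the nearest array over the range of the group. Chance gives about 1 in 20 groups, or 3.5 of the 70. For B2m, HX630 replicate 1 was at 1.78 against a mean of 1.66 for the other HX630 arrays (ratio 0.907). For Isg20, HX630 replicate 2 was at 4.42 against 4.36 (ratio 0.913). For Socs1, HX630 replicate 1 was at -2.12 against -2.62 (ratio 0.842). For Tap2, control replicate 1 was at 2.34 against 2.15 (ratio 0.921).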

How the results depend on the processing

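Over 24 alternatives, the 35 members gave 838 values, of which 782 kept their direction and side of the threshold, 17 lost a call, 15 gained one and 24 changed sign. In 11 members every alternative kept both: B2m, Bst2, Ddx58, Ifitm1, Ifitm3, Ifngr2, Isg20, Psmb8, Psmb9, Rsad2 and Stat2. Leaving out each array in turn gave 9 to 10 rises, 6 falls and a median of 0.18 to 0.23. The losses were Ifih1, without control replicate 2 or HX630 replicate 1, 2 or 3, and Psmb10, without control replicate 1 or HX630 replicate 4. Replicate numbers did not pair the samples: deviations of arrays with the same number correlated at 0.52, -0.0093, 0.24 and 0.38, and not every control array correlated best with its own number. With the replicate block there were 10 rises and 6 falls, the same 16 genes.

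Without a fold threshold 18 members were called higher and 7 lower. Spike-in scaling, with 8 probes, gave 3 called lower. The members' median was 0.29 with the median of each array, 0.43 with spike-in scaling, 0.040 with normexp, 0.030 without the filter on dim probes, 0.072 with probes above background on all 8 arrays (Ifih1 and Oasl2 drop out) and 0.12 with probes averaged within a gene. Normexp left 8 rises and 4 falls, without Ifih1, Oas2, Oasl2, Ifnar2 and Irf7 and with Irf1, and the cause was not tested.

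Ifih1 alone among called members changed sign, to -0.11 with normexp (adjusted p = 0.614). The other changes of sign were in members not called. With spike-in scaling these were Irf3 (0.20), Irf9 (0.050), Isg15 (0.12), Tap2 (0.22), Tapbp (0.053), Trim25 (0.040) and Usp18 (0.092). With normexp they were Irf3 (0.043), Isg15 (0.020), Socs1 (-0.013), Tap2 (0.040) and Usp18 (0.035). Irf3 and Tap2 were at 0.071 and 0.054 with quantile normalization and 0.068 and 0.084 with the median, and Tap2 at 0.015 with the percentile over probes above background on all arrays. With an array left out Irf3 ran from -0.052 to 0.025, Socs1 from -0.053 to 0.13 and Tap2 from -0.022 to 0.046. Dim probes such as those of Ifih1 and Oasl2 are limited by signal over background.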

Other observations

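Other called interferon-stimulated genes outside the 41 were named after their values were seen. Those that rose were Samd9l (difference 1.55 on the log2 scale), a restriction factor, Rtp4 (1.32), Oasl1 (1.17), Uba7 (0.90), the activating enzyme for Isg15, Herc6 (0.85), a ligase for Isg15, Trim21 (0.69), Irgm1 (0.68) and Parp9 (0.63). Sp100, a protein of nuclear bodies, fell by 0.74. Groups of arrays did not overlap in any of the 9, against 61.5% of all genes. These 9 were picked because they were called, so this adds little.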
